A study of Homo sapiens with 3 samples.

Results

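RNA from astrocytes made with retinoic acid was compared, gene by gene, with RNA from the neuroepithelial cells of the same protocol. Both cultures came from H9, an established human embryonic stem cell line, whose differentiation began with embryoid bodies after removal from mouse feeder cells. The neuroepithelial sample was taken at day 17 and received no morphogen. The RA astrocyte sample was taken at day 210 and its progenitors had received retinoic acid from day 10 to day 21. A further sample of day 210 astrocytes, given FGF8 over the same days, is quoted beside them. Each of the 3 samples was hybridised to 1 Affymetrix array, so no difference has a replicate, a test or an error, and day, morphogen and culture cannot be told apart. The comparison used 2 of the 3 arrays of the series and 13339 of the 19775 genes with a probe set of a single symbol. The other 6436 genes lay at or below the floor, a signal of 26.4 set at the median of all probe sets, on both arrays and have no difference.

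Neuroepithelial cells are polarised, dividing progenitors that line the early neural tube. Astrocytes arise late from such progenitors and take up transmitters, ions and debris, secrete lipoproteins, protease inhibitors and matrix, and signal through calcium and cyclic AMP. Retinoic acid gives neural tissue a caudal identity. The values below concern the cellular machinery that separates both stages, beyond the identity genes by which astrocytes are usually recognised.

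Signals are normalised intensities and, wherever 3 are listed for a gene, follow the order neuroepithelial, RA astrocytes, FGF8 astrocytes. A gene is called higher or lower where its RA signal differed from the neuroepithelial signal by at least 2-fold. A fold with "at least" has one side at the floor and is a lower bound. Signals of different genes come from different probe sets and are not set against each other. In bulk RNA, fewer cells of a type and less RNA per cell cannot be told apart.

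The labels were checked first. GFAP, the astrocyte intermediate filament, had signals of below the floor, 14574 and 3053, at least 553-fold higher, and the calcium-binding protein S100B had signals of below the floor, 2696 and 1685, at least 102-fold higher. All 13 astrocyte markers lay above the floor on the RA array and 9 did so on the neuroepithelial array, with summed signals of 55236 and 9674. Of these 10 were higher, ALDH1L1 and GJA1 lay within 2-fold (0.26 and 0.37 in log2), and the aldolase ALDOC was 4.08-fold lower. The neuroepithelial regulators PAX6 and LIN28A were 3.15-fold and at least 136-fold lower. SOX2, shared by both stages, differed by 0.06 in log2 on its main probe set, by 0.96 on another and by -1.15 on a dimmer one. Of 11 neuroepithelial markers 9 were lower, and 9 lay above the floor in RA, with a summed signal of 14632 against 31305. SOX2 (7281) and NES (5921, 2.06-fold higher) gave most of the RA sum. Among other cell types, the neuroepithelial array carried more of the mesenchymal markers (8 of 8 above the floor, summed signal 9321, against 2 of 8 and 162 in RA) and of the epithelial and endodermal markers (6 of 8, sum 3987, against 3 of 8 and 313). The sum of 10 neuron markers was 14196 and 11578, with 10 and 8 above the floor. TUBB3, within 2-fold, gave most of both sums (8362 and 8072). SYT1 and GAD1 were higher and 5 of the markers were lower. RBFOX3, near the floor in neuroepithelial cells (28.1), and SNAP25 were below the floor in RA. Microglia and blood markers were near or below the floor on both arrays (0 and 1 of 8 above it, sums 62.9 and 92.3), AIF1, CX3CR1, PTPRC, CD14, TYROBP and C1QA among those below it. The RNA itself also differed: the ratio of 3' to 5' signal of the control ACTB was 1.33 on the neuroepithelial, 6.67 on the RA and 6.63 on the FGF8 array, that of GAPDH was 0.984, 1.79 and 1.65, and 18 hybridisation control probe sets were 1.39 ± 0.22 (SD, n = 18 probe sets) higher in log2 on the RA array before normalisation. The part of these differences in any result below was not tested.

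Of the genes compared, 2420 were higher in RA astrocytes (18.1%) and 1946 were lower (14.6%), while 8973 lay within 2-fold. The median log2 difference over all genes compared was 0.07. These shares and this median are the background for each group of genes below. A 16-fold difference was reached by 143 higher and 121 lower genes. With array medians set equal, the median over all genes was 0.35 in place of 0.07, and 70.8% rather than 55.4% of the called genes were higher. Groups of genes with medians near 0 therefore have no settled direction.

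**Figure D1:**
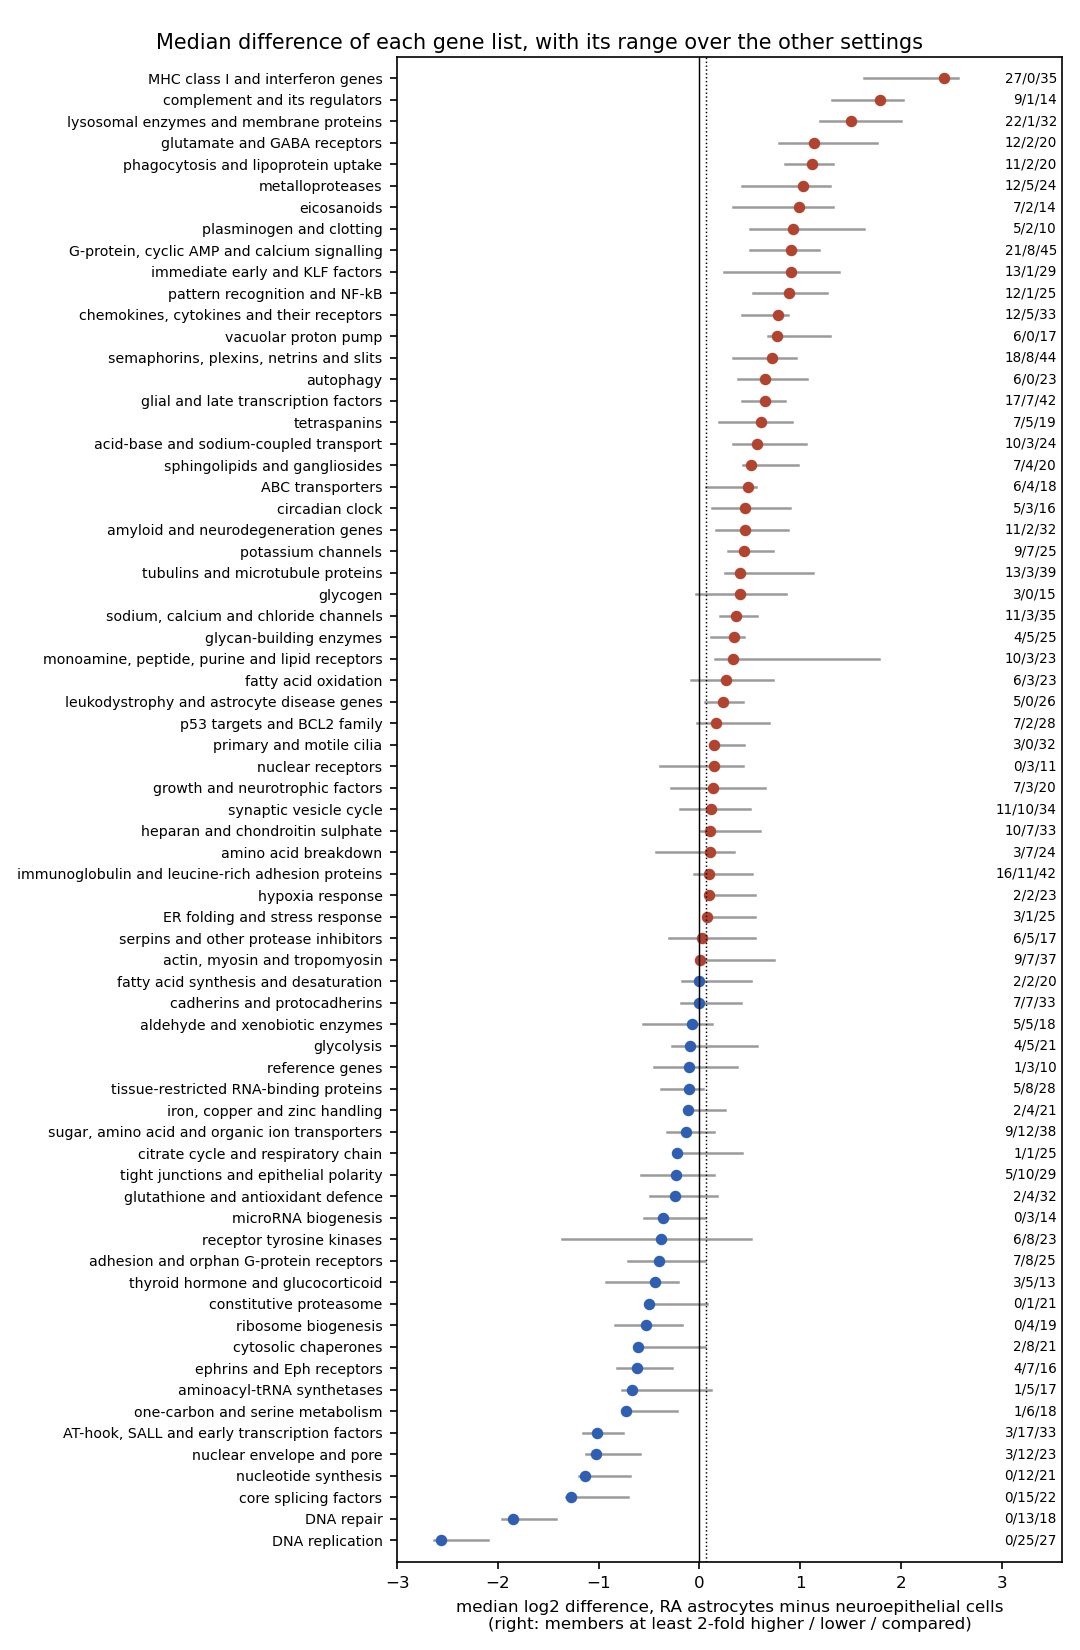
Each row is a gene list, 69 of the 70 in all; the point is the median log2 difference between RA astrocytes and neuroepithelial cells, the grey line its range over the alternative settings, and the numbers at the right the members higher, lower and compared; the dotted line is the median over all genes. DNA replication lies lowest at -2.57 and MHC class I and interferon genes highest at 2.43, while lists in the middle have ranges that cross 0.

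DNA replication genes were nearly all lower in RA astrocytes. In the DNA replication list, 0 of the 27 compared were higher and 25 were lower, with a median log2 difference of -2.57. The replication licensing factor CDC6, which loads the helicase onto origins, had signals of 365, 30.3 and 172, 12.03-fold lower. The helicase subunits MCM5 and MCM2 had signals of 813, 77.1 and 498, and of 1769.6, 189 and 995, 10.5-fold lower and 9.34-fold lower. FEN1, the nuclease that trims Okazaki fragments, had signals of 1807, 198 and 992, 9.13-fold lower. The 2 members within 2-fold were GINS4, a helicase cofactor (-0.73 in log2), and RFC5, a clamp loader subunit (0.81). In each of these 4 lower genes the FGF8 astrocytes lay between the other arrays. Against the neuroepithelial array, which both comparisons share, the FGF8 array had 1 higher and 6 lower of 27, median -0.83.

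Many promoters of this list carry a match to the E2F motif, named for the factors that switch S phase genes on. The letters searched were TTTCCCGC, TTTCGCGC, TTTGCCGC and TTTGGCGC on both strands, in the 250 bases before and 50 after each gene's start (RefSeq, GRCh38.p14); these motifs can overlap each other and their own reverse complements. Of the 27 genes compared 23 had such a promoter, and 15 of them (65.2%) held a match, against 908 of 27305 promoters in all (3.33%). The 27305 promoters, also the reference for the motifs below, include genes beyond the 19775 with a probe set of a single symbol. Because 22 of the 23 were past 2-fold, all but RFC5, matches cannot be compared between lower and other genes of this list. The promoters of the list's most different genes with a match, CDC6 and MCM2, are shown with the matching bases in capitals. A match describes letters and is not a measured binding site.
CDC6, chr17:40287629-40287928, plus strand: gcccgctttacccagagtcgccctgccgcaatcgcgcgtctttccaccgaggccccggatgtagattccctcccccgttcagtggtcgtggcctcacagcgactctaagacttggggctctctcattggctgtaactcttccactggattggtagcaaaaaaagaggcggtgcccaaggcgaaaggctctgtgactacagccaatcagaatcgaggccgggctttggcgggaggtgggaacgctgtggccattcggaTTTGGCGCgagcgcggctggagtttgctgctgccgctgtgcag
MCM2, chr3:127598161-127598460, plus strand: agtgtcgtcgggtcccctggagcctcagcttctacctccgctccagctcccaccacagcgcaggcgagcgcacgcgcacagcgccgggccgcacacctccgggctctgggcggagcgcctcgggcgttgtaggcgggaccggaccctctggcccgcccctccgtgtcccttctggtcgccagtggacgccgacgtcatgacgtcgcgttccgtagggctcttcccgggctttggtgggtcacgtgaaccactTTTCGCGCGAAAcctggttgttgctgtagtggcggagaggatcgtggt

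Nucleotide supply and genome maintenance genes were lower as well. In the nucleotide synthesis list 0 of the 21 compared were higher and 12 were lower, with a median log2 difference of -1.13. RRM2, the ribonucleotide reductase subunit that limits deoxynucleotide supply in S phase, had signals of 3172, 166 and 1869, 19.1-fold lower. Thymidine kinase TK1 had signals of 336, 40.3 and 155, 8.33-fold lower, and TYMS, which makes thymidylate, had signals of 6351, 1009 and 5278, 6.29-fold lower. The cytidine nucleotide enzyme CTPS1 had signals of 1164, 177 and 408, 6.58-fold lower. The FGF8 signals of RRM2 and TYMS stood closer to the neuroepithelial than to the RA values. Among DNA repair genes 0 of the 18 compared were higher and 13 were lower, with a median log2 difference of -1.84. FANCI, of the crosslink repair pathway, had signals of 1139.8, 45.4 and 721, 25.1-fold lower. The exonuclease EXO1 had signals of 268, below the floor and 150.3, at least 10.2-fold lower.

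The nuclear envelope list held genes of both directions: 3 of the 23 compared were higher and 12 were lower, with a median log2 difference of -1.02. Lamin B1, LMNB1, a B-type lamin of dividing cells, had signals of 1482, 159 and 645, 9.32-fold lower. LMNA, whose A-type lamins are higher in stiff and mature tissue, had signals of 136, 632 and 331, 4.65-fold higher. The inner membrane proteins TMPO and LBR, which tether chromatin to B-type lamins, were 4.03-fold lower (2573, 639 and 1612) and 3.8999-fold lower (3097, 794 and 2246). SYNE1, a nesprin that links the nucleus to the cytoskeleton, had signals of 51.3, 354 and 123, 6.901-fold higher. The importin KPNA2 had signals of 5321, 1422 and 2961, 3.74-fold lower.

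Core splicing factors were lower as a group: 0 of the 22 compared were higher and 15 were lower, with a median log2 difference of -1.28. SNRPA, a protein of the U1 particle, had signals of 2036, 403 and 825, 5.05-fold lower. SNRPB, of the common Sm core, had signals of 3759.7, 914 and 1579.6, 4.11-fold lower, and the serine-rich factor SRSF3 had signals of 7572, 2221 and 4178, 3.41-fold lower. HNRNPU, a nuclear scaffold protein, had signals of 1980.2, 535 and 916, 3.699-fold lower. No member lay above 0, and the median ranged from -1.33 to -0.71 over the alternative settings. On the FGF8 array 3 of 22 were lower.

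Protein synthesis genes differed less. In ribosome biogenesis 4 of 19 were lower and 0 higher, with a median of -0.53. FBL, the methyltransferase of ribosomal RNA, had signals of 3580.2, 909.8 and 1993, 3.94-fold lower. Aminoacyl-tRNA synthetases (1 higher and 5 lower of 17, median -0.67) had no settled direction, since their median was 0.12 with array medians set equal. The largest lower member was the leucine enzyme LARS1, with signals of 2007, 739 and 1182, 2.71-fold lower, but within 2-fold under 1 alternative setting. In microRNA biogenesis 3 of 14 were lower (21.4%, against 14.6% over all genes) and 0 higher. This list had no settled direction, since its median of -0.36 became 0.06 with array medians set equal. DICER1, which cuts hairpin precursors, had signals of 1943, 657 and 999, 2.96-fold lower.

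**Figure D2:**
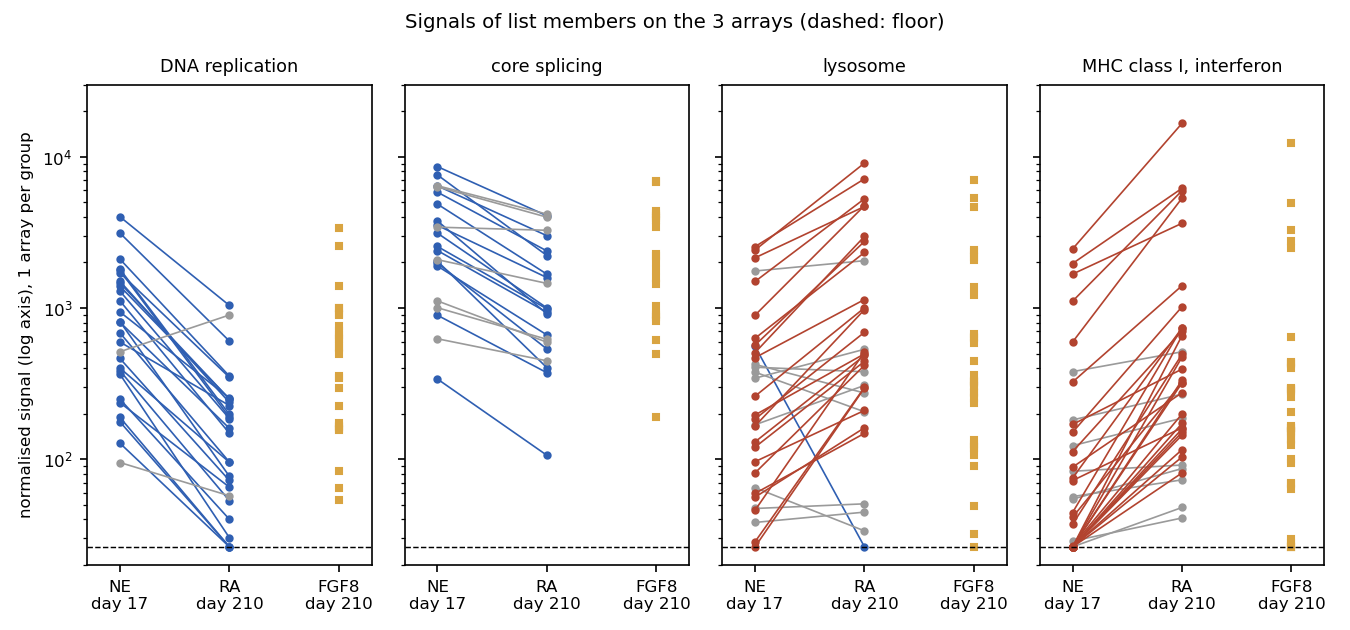
Normalised signal on a log axis of every compared member of 4 lists on the neuroepithelial (NE), RA and FGF8 arrays, 1 array each; lines join NE and RA (blue lower, red higher, grey within 2-fold), squares give FGF8, and values below the dashed floor of 26.4 are drawn at it. In the DNA replication panel 25 of 27 lines are blue, and in the lysosome panel 22 of 32 are red.

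In one-carbon and serine metabolism single enzymes were much lower in RA astrocytes, while 11 of 18 genes lay within 2-fold. The one-carbon and serine list had 1 higher and 6 lower of 18, median -0.73. MTHFD2, the mitochondrial folate enzyme typical of proliferating cells, had signals of 2387, 161 and 288, 14.8-fold lower. PHGDH, the first enzyme of serine synthesis, had signals of 1377, 402 and 194, 3.42-fold lower, and CTH, which makes cysteine from cystathionine, had signals of 357, 43.4 and 123, 8.24-fold lower. PHGDH was lowest on the FGF8 array, whereas MTHFD2 and CTH were lowest on the RA array. Amino acid breakdown had no settled direction (3 higher and 7 lower of 24, median 0.11, and -0.43 when probe sets of a gene were averaged). In that list ASS1, which makes argininosuccinate, had signals of 272, 2239 and 1477, 8.24-fold higher, the GABA transaminase ABAT had signals of 1669, 4554 and 3039, 2.73-fold higher, and the cysteine dioxygenase CDO1 had signals of 1517, 261 and 979, 5.81-fold lower.

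Energy metabolism showed no common shift, but individual entry steps differed. In the glycolysis list 4 of 21 were higher and 5 lower, and scaling the arrays to equal medians brought the median from -0.09 to 0.57. Lactate dehydrogenase LDHA had signals of 1830.02, 531 and 698, 3.45-fold lower, and the glucose transporter SLC2A3 had signals of 1327, 342 and 166, 3.88-fold lower. HK1, the main hexokinase of brain, had signals of 464, 1131 and 870.3, 2.44-fold higher. Of 25 citrate cycle and respiratory chain genes 23 lay within 2-fold, such as the ATP synthase subunit ATP5F1A at -0.10 and the citrate synthase CS at -0.64. Fatty acid oxidation (6 higher and 3 lower of 23, median 0.27) had a median of -0.08 when probe sets of a gene were averaged. Its first and rate-limiting step, the carnitine transferase CPT1A, had signals of 44.5, 498 and 181, 11.2-fold higher. HADHB, of the trifunctional protein, had signals of 1548, 3309.7 and 2209, 2.14-fold higher. ACSL4, which activates arachidonic acid, had signals of 463, 45.7 and 30.02, 10.1-fold lower, and was within 2-fold under 1 alternative setting.

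Lipid mediator and ganglioside genes were among the larger metabolic differences. Of the eicosanoid list 7 of the 14 compared were higher and 2 were lower, with a median log2 difference of 0.99. Another 7 genes were at the floor on both arrays, and without a floor the median was 0.33. PTGDS, the prostaglandin D synthase and abundant brain secretory protein, had signals of below the floor, 1499.9 and 1689, at least 56.9-fold higher. The carbonyl reductase CBR1 had signals of 31.3, 411 and 157, 13.1-fold higher, and the phospholipase PLAAT3 had signals of 79.1, 801 and 1019, 10.1-fold higher. The prostacyclin synthase PTGIS had signals of 645, below the floor and below the floor, at least 24.5-fold lower, so the prostaglandin branch enzymes PTGDS and PTGIS stood at the floor on opposite sides of the comparison. Sphingolipid and ganglioside genes (7 higher and 4 lower of 20, median 0.51) held ST8SIA5, a sialyltransferase of complex gangliosides, with signals of below the floor, 865 and 689, at least 32.8-fold higher, and ST3GAL5, the GM3 synthase at the root of the ganglioside series, with signals of 100.01, 419 and 602, 4.19-fold higher. UGCG, which makes glucosylceramide, had signals of 1125, 230.2 and 281, 4.89-fold lower, and the sphingosine phosphate receptor S1PR1 had signals of 199, 54.7 and 35.4, 3.65-fold lower. In the fatty acid synthesis list only 4 of 20 passed 2-fold; the elongase ELOVL6 had signals of 1064, 358 and 535, 2.97-fold lower and the desaturase FADS3 had signals of 75.4, 293 and 124, 3.89-fold higher.

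**Figure D3:**
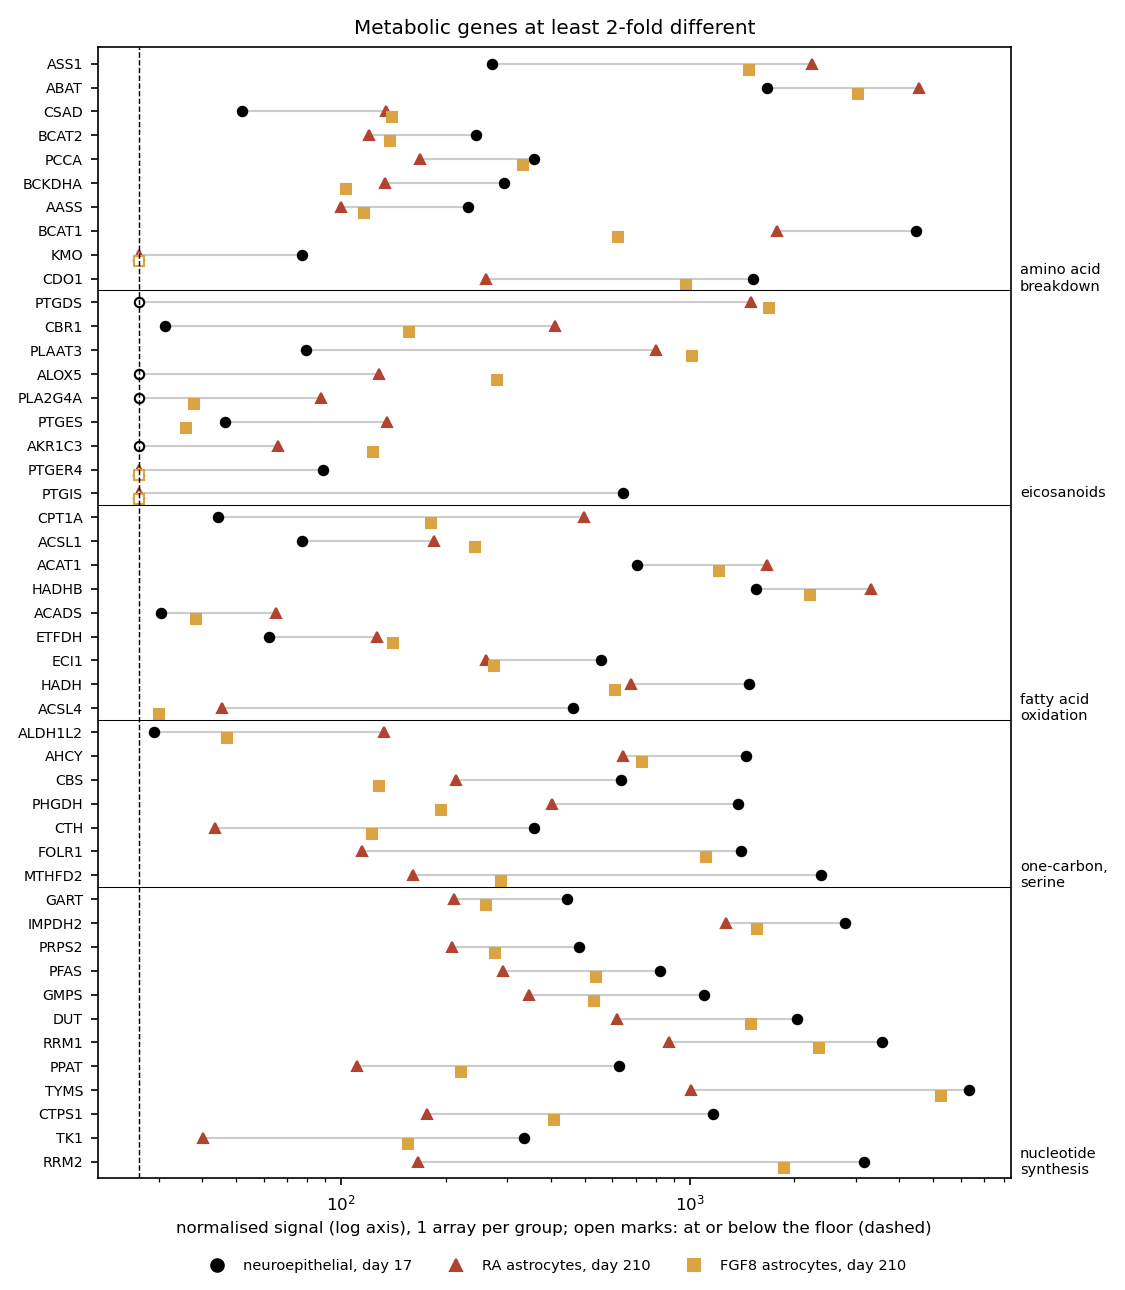
Normalised signal on a log axis of the metabolic genes at least 2-fold different between RA astrocytes (red triangles) and neuroepithelial cells (black circles), with FGF8 astrocytes as yellow squares drawn slightly lower; open marks lie at or below the dashed floor of 26.4, where a square can hide a triangle. All 12 nucleotide synthesis genes shown lie lower in RA, while 7 of the 9 eicosanoid genes lie higher.

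Detoxifying and metal-handling genes went both ways. In the aldehyde and xenobiotic list 5 of 18 were higher and 5 lower. The epoxide hydrolase EPHX1 had signals of 205, 1519 and 822, 7.41-fold higher, and the monoamine oxidase MAOA had signals of 92.1, 473 and 137, 5.14-fold higher. The cytochrome CYP1B1 and the retinaldehyde dehydrogenase ALDH1A1 were at least 16.0003-fold lower and at least 15.4-fold lower, from neuroepithelial signals of 422 and 405. The antioxidant list had no settled direction (2 higher and 4 lower of 32, median -0.24); the cystine transporter SLC7A11 had signals of 434, 123 and 104, 3.51-fold lower and the glutathione transferase GSTM2 had signals of 267, 845 and 396, 3.16-fold higher. For metals, CYBRD1, a ferric reductase, had signals of 131, 1221 and 746, 9.35-fold higher. The zinc and manganese importers SLC39A8 and SLC39A14 were at least 9.22-fold lower and 3.21-fold lower (722, 225 and 169 for SLC39A14). SLC39A8 had a difference under only 3 of the 8 alternative settings.

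Hormone and clock genes included large single differences. In the thyroid hormone and glucocorticoid list 3 of 13 were higher and 5 lower. SLCO1C1, which imports thyroxine into brain cells, had signals of below the floor, 562 and 79.9, at least 21.3-fold higher. DIO3, the deiodinase that inactivates thyroid hormone, had signals of 255, below the floor and below the floor, at least 9.65-fold lower. The glucocorticoid receptor NR3C1 had signals of 61.5, 1017 and 543, 16.5-fold higher. FKBP5, ZBTB16 and ERRFI1, known as glucocorticoid-inducible genes, were 4.22-fold lower, 7.63-fold lower and 4.75-fold lower. In the circadian list 5 of the 16 compared were higher and 3 were lower, with a median log2 difference of 0.46. The clock activator BMAL1 had signals of 50.5, 331 and 237, 6.55-fold higher, and the repressor BHLHE41 had signals of below the floor, 498 and 249.9, at least 18.9-fold higher. In a separate list of nuclear receptors, which leaves out NR3C1 and the thyroid receptor THRA (3.92-fold higher, within 2-fold under 1 alternative setting), none of the 11 compared was higher and 3 were lower.

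Lysosomal genes were mostly higher in RA astrocytes. In the lysosomal list 22 of the 32 compared were higher and 1 was lower, with a median log2 difference of 1.51, ranging from 1.197 to 2.0001 over the alternative settings. SMPD1, the acid sphingomyelinase, had signals of 46.04, 512 and 274, 11.1-fold higher. The protease CTSO had signals of 28.5, 299 and 32.1, 10.5-fold higher, and CTSF had signals of below the floor, 296 and 126, at least 11.2-fold higher. CTSA, which protects other lysosomal enzymes, had signals of 166, 975 and 646, 5.89-fold higher. The exception was CTSC, a protease that activates immune serine proteases, with signals of 558, below the floor and 236, at least 21.2-fold lower. CTSO was high on the RA array alone, whereas SMPD1, CTSA and CTSF had intermediate FGF8 signals. The FGF8 array had 16 higher and 2 lower of 32, median 0.96.

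The lysosomal list was searched for TCACGTGA, the palindromic core of the element that TFEB and related factors bind, on both strands. It occurred in 4 of 22 matched promoters (18.2%), those of LAMP1, CTSA, GAA and MCOLN1, named here for the match, all among the 16 past 2-fold, and in 283 of 27305 promoters in all (1.04%). The promoters of CTSA and of MCOLN1, a lysosomal calcium channel with signals of 56.2, 161 and 119.96, 2.88-fold higher, are shown because they are the members with a match and the largest differences; capitals mark the match.
CTSA, chr20:45891085-45891384, plus strand: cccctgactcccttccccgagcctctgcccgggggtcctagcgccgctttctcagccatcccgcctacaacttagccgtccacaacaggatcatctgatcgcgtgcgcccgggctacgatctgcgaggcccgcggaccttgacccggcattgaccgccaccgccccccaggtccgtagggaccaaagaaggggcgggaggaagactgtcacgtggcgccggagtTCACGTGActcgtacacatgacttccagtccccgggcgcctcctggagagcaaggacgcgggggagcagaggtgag
MCOLN1, chr19:7522374-7522673, plus strand: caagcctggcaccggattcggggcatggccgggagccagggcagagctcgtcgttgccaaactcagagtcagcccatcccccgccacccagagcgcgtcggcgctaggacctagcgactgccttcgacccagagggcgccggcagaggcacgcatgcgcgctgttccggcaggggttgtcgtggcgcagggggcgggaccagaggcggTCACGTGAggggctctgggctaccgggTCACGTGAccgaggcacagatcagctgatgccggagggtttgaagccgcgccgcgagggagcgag

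Acidification and autophagy genes had smaller medians than the enzymes. Of the vacuolar proton pump subunits 6 of 17 were higher and 0 lower, with a median of 0.77. ATP6V0E2 had signals of 457, 3813 and 2267, 8.34-fold higher, and ATP6V1G2, a subunit of neural tissue, had signals of 124, 842 and 311, 6.78-fold higher. In autophagy 6 of 23 were higher and 0 lower (median 0.66). OPTN, a receptor for damaged mitochondria, had signals of 166, 1188 and 510.4, 7.13-fold higher, ATG9A, the vesicle scramblase, had signals of 105, 378 and 165, 3.61-fold higher, and MAP1LC3A had signals of 67.9, 293 and 73.5, 4.32-fold higher. The core conjugation genes ATG5 and ATG7 lay within 2-fold (0.29 and -0.41). The list of uptake genes for debris and lipoproteins had 11 higher and 2 lower of 20, median 1.12. MEGF10, an astrocyte receptor for synaptic debris, had signals of 475, 2496 and 3312, 5.25-fold higher. PROS1, a bridging ligand for dying cells, had signals of 247, 1372 and 376, 5.55-fold higher, and the receptor LRP4 had signals of 209, 1125 and 893, 5.37-fold higher. GULP1, an engulfment adaptor, had signals of 1313, 27.8 and 139, 47.3-fold lower, and LRP2, the apical receptor megalin of neuroepithelium, had signals of 797, 26.4 and below the floor, 30.1-fold lower.

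Other protein quality control genes were flat or lower. Of 21 constitutive proteasome subunits 20 lay within 2-fold, and the median of -0.50 became 0.079 when arrays were scaled to equal medians. Cytosolic chaperones (2 higher and 8 lower of 21, median -0.61) had a median of 0.059 under that setting. The chaperonin subunit CCT5 had signals of 3409, 1023 and 1932, 3.33-fold lower, while the small heat shock proteins CRYAB and HSPB1 had signals of 269, 2479.7 and 735, 9.23-fold higher, and signals of 1216, 3420.4 and 1441, 2.81-fold higher. Their relative HSPB8, which works with a co-chaperone in selective autophagy, had signals of 232, below the floor and below the floor, at least 8.79-fold lower, and was within 2-fold under 1 alternative setting. In the endoplasmic reticulum list 21 of 25 lay within 2-fold, such as the chaperone HSPA5 at 0.36. DNAJC3, an inhibitor of stress kinases, had signals of 191, 847 and 546, 4.44-fold higher, CRELD2 and the stress factor DDIT3 differed by 1.08 and 1.29, and CREB3L1 by -1.02, within 2-fold under 2 alternative settings.

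Antigen presentation and interferon genes had the highest median of the lists, a log2 difference of 2.43. Of the 35 compared 27 were higher and 0 were lower, with 9 more genes at the floor on both arrays. The median ranged from 1.64 to 2.56 over the alternative settings and was not the highest under all of them. It was 1.65 with the floor at the 70th percentile, where the complement list had 1.89. Without less specific probe sets it was 1.97, against 2.002 for the complement list. IFIT2, an antiviral RNA-binding protein, had signals of below the floor, 657 and 259, at least 24.9-fold higher, and IRF9, the DNA-binding part of the interferon-induced factor, had signals of 44.5, 742 and 427, 16.7-fold higher. The peptide transporter TAP1 had signals of 37.2, 494 and 438, 13.3-fold higher. The motif GAAANNGAA, the core of interferon-response elements, was found on either strand in 17 of 26 matched promoters of the list (65.4%), in 11 of the 19 of these past 2-fold (57.9%) and in 2264 of 27305 promoters (8.29%). Neighbouring matches can overlap, as in TAP1. The promoters of TAP1 and of IFIT3, an antiviral relative of IFIT2 with signals of below the floor, 320.1 and 289.7, at least 12.1-fold higher, are given with the matches in capitals, since they are the members with a match and the largest differences.
TAP1, chr6:32853655-32853954, minus strand: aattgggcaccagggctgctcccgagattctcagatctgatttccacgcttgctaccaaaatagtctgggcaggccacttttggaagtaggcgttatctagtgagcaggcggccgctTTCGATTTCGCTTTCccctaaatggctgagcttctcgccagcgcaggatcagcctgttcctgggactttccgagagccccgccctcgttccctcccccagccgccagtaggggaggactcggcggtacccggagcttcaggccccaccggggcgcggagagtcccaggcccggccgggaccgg
IFIT3, chr10:89327747-89328046, plus strand: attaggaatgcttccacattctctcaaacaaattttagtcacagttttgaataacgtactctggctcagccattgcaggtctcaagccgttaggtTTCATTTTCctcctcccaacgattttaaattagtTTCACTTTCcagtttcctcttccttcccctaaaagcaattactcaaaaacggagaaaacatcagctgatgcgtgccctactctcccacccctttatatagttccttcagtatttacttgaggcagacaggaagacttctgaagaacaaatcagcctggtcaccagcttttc

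Complement genes and part of the innate immune sensors were higher. In the pattern recognition and NF-kB list 12 of the 25 compared were higher and 1 was lower, with a median log2 difference of 0.89, with 12 within 2-fold and 15 further genes at the floor on both arrays. IFI16, a DNA sensor, had signals of 36.3, 2701 and 2628, 74.3-fold higher. NFKBIZ, an inducible NF-kB cofactor, had signals of 110.1, 359 and 367, 3.26-fold higher, and the adaptor TRAF5 had signals of 74.97, 245 and 368, 3.27-fold higher. TNFAIP8 had signals of 343, 64.8 and 48.4, 5.3004-fold lower. The complement list, C1QL1 included, had 9 higher and 1 lower of 14, median 1.79, with 12 further genes at the floor on both arrays. CFI, the protease that inactivates C3b, had signals of below the floor, 2954 and 1299, at least 112-fold higher, the protease C1R had signals of 34.2, 502 and 189, 14.7-fold higher, and C1QL1, a C1q-related ligand of adhesion receptors, had signals of 53.7, 3065 and 1181, 57.04-fold higher. CD55, a decay accelerator, had signals of 106, below the floor and below the floor, at least 4.001-fold lower, within 2-fold under 1 alternative setting. Microglial markers stood at the values given above, with 7 of 8 at the floor on both arrays.

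Cytokine, chemokine and receptor genes went both ways, with more of them higher. Of 33 compared 12 were higher and 5 lower (median 0.78), while 22 were at the floor on both arrays. IL1RAP, the shared chain of interleukin 1 receptors, had signals of 30.2, 702 and below the floor, 23.2-fold higher, and it was above the floor in RA but not in FGF8. TNFRSF1A, the main TNF receptor, had signals of 139.8, 1114 and 737, 7.96-fold higher, and CSF1, a growth factor for microglia, had signals of 40.3, 642 and 314, 15.9-fold higher, within 2-fold under 1 alternative setting. The chemokines CXCL14 and CXCL12 had signals of 389, 28.7 and below the floor, 13.6-fold lower, and signals of 133, below the floor and 1054, at least 5.05-fold lower; CXCL12 was within 2-fold under 1 alternative setting and high on the FGF8 array. Immediate early and KLF genes had 13 higher and 1 lower of 29, median 0.91. CEBPD, an acute-phase factor, had signals of 76.3, 2434 and 1747, 31.9-fold higher, FOS had signals of 62.5, 1636 and 1819, 26.2-fold higher, and FOSL2 had signals of 138, 1007 and 141, 7.295-fold higher. FOSL2 was high in RA only, while FOS and CEBPD were high in both astrocyte arrays.

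Proteolysis outside the cell was a further function with many differences. In the plasminogen and clotting list 5 of 10 were higher and 2 lower, with 8 at the floor on both arrays. The plasminogen activators PLAT and PLAU had signals of 102, 962 and 207, 9.398-fold higher, and signals of 76.5, 666 and 207, 8.71-fold higher. S100A10, which docks plasminogen at the cell surface, had signals of 1307, 11978 and 4510.3, 9.17-fold higher, and F3, tissue factor, had signals of 93.8, 615 and 663, 6.55-fold higher. Their inhibitors went both ways: TFPI, which blocks tissue factor, had signals of 202, 2419 and 1814, 11.98-fold higher, its relative TFPI2 had signals of 458, 37.1 and 182, 12.3-fold lower, and SERPINE2, an astroglial thrombin inhibitor, had signals of 1104, 109.7 and 185, 10.1-fold lower. SERPING1, the C1 inhibitor, had signals of 291, 1847 and 152, 6.35-fold higher. Metalloproteases and their inhibitors had 12 higher and 5 lower of 24, median 1.03, and 0.43 without a floor. ADAM9, a sheddase, had signals of 1068, 7922 and 5817, 7.42-fold higher, ADAM12 had signals of 67.5, 833 and 401, 12.3-fold higher, and ADAMTS3, a procollagen processing enzyme, had signals of 94.1, 739 and 1329, 7.85-fold higher. The lower members MMP9, ADAMTS9, TIMP3 and ADAMTS1 were each within 2-fold under at least 1 alternative setting.

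Relatives among the proteoglycan genes stood on opposite sides. In the heparan and chondroitin sulphate list 10 of 33 were higher and 7 lower, with a median of 0.11. GPC3, a growth-restricting glypican of embryonic tissue, had signals of 1399, 86.5 and below the floor, 16.2-fold lower, and GPC1, a glypican of the nervous system, had signals of 281, 2165 and 903, 7.699-fold higher. Among syndecans, SDC1, of epithelia, had signals of 297, 69.3 and 86.1, 4.29-fold lower, and SDC3, of neural tissue, had signals of 169, 1318 and 393, 7.82-fold higher. The sulphotransferases HS3ST3A1 and HS3ST3B1 had signals of 62.998, 837 and 449.6, 13.3-fold higher, and signals of 92.3, 1062 and 3124, 11.5-fold higher. SULF1, which removes sulphate from heparan chains, had signals of 325, below the floor and 28.02, at least 12.3-fold lower. The glycan list had 4 higher and 5 lower of 25, median 0.34; B3GAT1, which builds the HNK-1 epitope, had signals of 128, 439 and 718, 3.43-fold higher, and ST6GALNAC3 had signals of 305, 715 and 49.2, 2.34-fold higher.

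Growth factor signalling had no common direction. Of 20 ligands 7 were higher and 3 lower. VEGFB and PDGFA had signals of 69.2, 453 and 169, 6.55-fold higher, and signals of 74.9, 399 and 496, 5.32-fold higher, EGF had signals of 88.3, 506 and 39.3, 5.73-fold higher, and ANGPT1, a vessel-stabilising ligand, had signals of below the floor, 195 and 210.1, at least 7.39-fold higher. EGF was near the floor in FGF8 astrocytes. Of 23 receptor tyrosine kinases 6 were higher and 8 lower. The neurotrophin receptors NTRK2 and NTRK3 had signals of 60.9, 1660.3 and 107, 27.3-fold higher, and signals of 47.1, 554 and 124, 11.8-fold higher, both highest in RA. PDGFRA had signals of 173, 794 and 5997, 4.6005-fold higher, highest in FGF8. KIT, the stem cell factor receptor, had signals of 326, below the floor and below the floor, at least 12.4-fold lower, and MET had signals of 91.9, below the floor and below the floor, at least 3.48-fold lower.

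Guidance and adhesion families held members of both directions. Of 16 ephrin and Eph genes 4 were higher and 7 lower. EFNA5, a repellent ligand, had signals of 1111, below the floor and 178, at least 42.1-fold lower, and EFNA1 had signals of below the floor, 453 and 326, at least 17.2-fold higher. EPHA2, of epithelia, had signals of 453, 50.97 and 190.3, 8.88-fold lower, and EPHA3 had signals of 297, 1632 and 2281, 5.49-fold higher. EFNB3, a midline ligand, had signals of 369, 2610.5 and 282, 7.08-fold higher, and was high in RA only. In the list of semaphorins, plexins, netrins and slits, 18 of the 44 compared were higher and 8 were lower, with a median log2 difference of 0.72. SEMA6D had signals of 155, 4008 and 1392, 25.9-fold higher and SEMA5B had signals of 125, 784 and 1151, 6.27-fold higher. The midline repellent SLIT2 had signals of 1337, 265 and 46.9, 5.05-fold lower and NTN4, a basement membrane netrin, had signals of 239, below the floor and below the floor, at least 9.08-fold lower.

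Synaptic and surface adhesion proteins had 16 of 42 higher and 11 lower. LRRN3 had signals of 163, 2171 and 1852, 13.3-fold higher, LRRTM2, a postsynaptic organiser, had signals of below the floor, 452 and 652, at least 17.1-fold higher, and ICAM1, a leukocyte ligand induced by NF-kB, had signals of below the floor, 288 and 193, at least 10.9-fold higher. NRXN3, a presynaptic neurexin, had signals of 273, 56.2 and 601, 4.86-fold lower. Among 33 cadherins and protocadherins 7 were higher and 7 lower. PCDH10 and PCDH8 had signals of 57.7, 2327 and 364, 40.3-fold higher, and signals of 78.97, 1549.6 and 195, 19.6-fold higher, PCDH19 had signals of 2006, below the floor and 222, at least 76.1-fold lower, and the atypical cadherin FAT4 had signals of 378, 29.2 and below the floor, 12.9-fold lower. Both higher protocadherins had a lower signal in FGF8 than in RA astrocytes. In the tetraspanin list 7 of 19 were higher and 5 lower; CD151, which binds laminin receptors, had signals of 298, 1199 and 387, 4.02-fold higher, TSPAN11 had signals of 233, 1394 and 481, 5.98-fold higher and TSPAN13 had signals of 2268, 169 and 314, 13.4-fold lower.

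Desmosomal genes were at or below the floor in RA astrocytes. The junction list had 5 higher and 10 lower of 29, median -0.23, and its median became 0.15 when arrays were scaled to equal medians. Desmoplakin DSP had signals of 1012, below the floor and below the floor, at least 38.4-fold lower, desmocollin DSC2 had signals of 973, below the floor and below the floor, at least 36.9-fold lower, and desmoglein DSG2 had signals of 894, below the floor and below the floor, at least 33.9-fold lower. The tight junction protein CLDN1 had signals of 335, below the floor and below the floor, at least 12.7-fold lower. CLDN11, a claudin of myelin, had signals of 39.9, 280.5 and 175, 7.03-fold higher, JAM2 had signals of 405, 2214 and 1172, 5.47-fold higher, and CRB1, an apical polarity protein of retina and radial glia, had signals of 146, 608 and 886, 4.17-fold higher. Epithelial markers went the same way: KRT8, KRT18, KRT19, EPCAM and AFP were lower, CDH1 lay within 2-fold, and FOXA2 and SOX17 were at the floor on both arrays. The part of such cells in these differences was not tested.

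Receptors for glutamate and GABA were mostly higher where they could be compared. 12 of the 20 compared were higher and 2 were lower, with a median log2 difference of 1.14, while 16 more genes were at the floor on both arrays. GABBR2, a subunit of the metabotropic GABA receptor, had signals of below the floor, 4763 and 532, at least 181-fold higher. The AMPA receptor subunits GRIA2 and GRIA3 had signals of below the floor, 1494 and 2723, at least 56.7-fold higher, and signals of 34.5, 888 and 537, 25.8-fold higher, and the kainate subunit GRIK1 had signals of 27.7, 482 and 46.7, 17.4-fold higher. GABRP, a GABA receptor subunit of epithelia, had signals of 193, below the floor and below the floor, at least 7.31-fold lower. GABBR2 and GRIK1 were highest in RA, whereas GRIA2 was highest in FGF8. A gene below the floor in neuroepithelial cells enters the comparison only where it lies above the floor in RA. Of 10 neuron markers 2 were higher, SYT1 and GAD1, and 5 were lower.

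Potassium channels had 9 of 25 higher and 7 lower. KCND3, the pore of an A-type current, had signals of below the floor, 1968 and 2150.1, at least 74.6-fold higher, and its auxiliary subunits KCNIP4 and KCNIP1 had signals of 42.7, 3008 and 291, 70.5-fold higher, and signals of 36.8, 458 and 53.8, 12.5-fold higher. The calcium-gated channel KCNN3 had signals of 49.7, 267 and 221, 5.38-fold higher. The 4 most different lower members, KCNK10, KCNMA1, KCNJ4 and KCNS3, were within 2-fold under 1 or 2 alternative settings each. Among sodium, calcium and chloride channels 11 of the 35 compared were higher and 3 were lower, with a median log2 difference of 0.36. The sodium channel SCN1A had signals of below the floor, 836 and 1081, at least 31.7-fold higher, and the auxiliary subunit SCN4B had signals of below the floor, 258 and 181, at least 9.77-fold higher. The calcium channel subunit CACNA2D1 had signals of 228, 49.1 and 531, 4.65-fold lower, lower in RA but higher in FGF8 than in neuroepithelial cells.

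**Figure D4:**
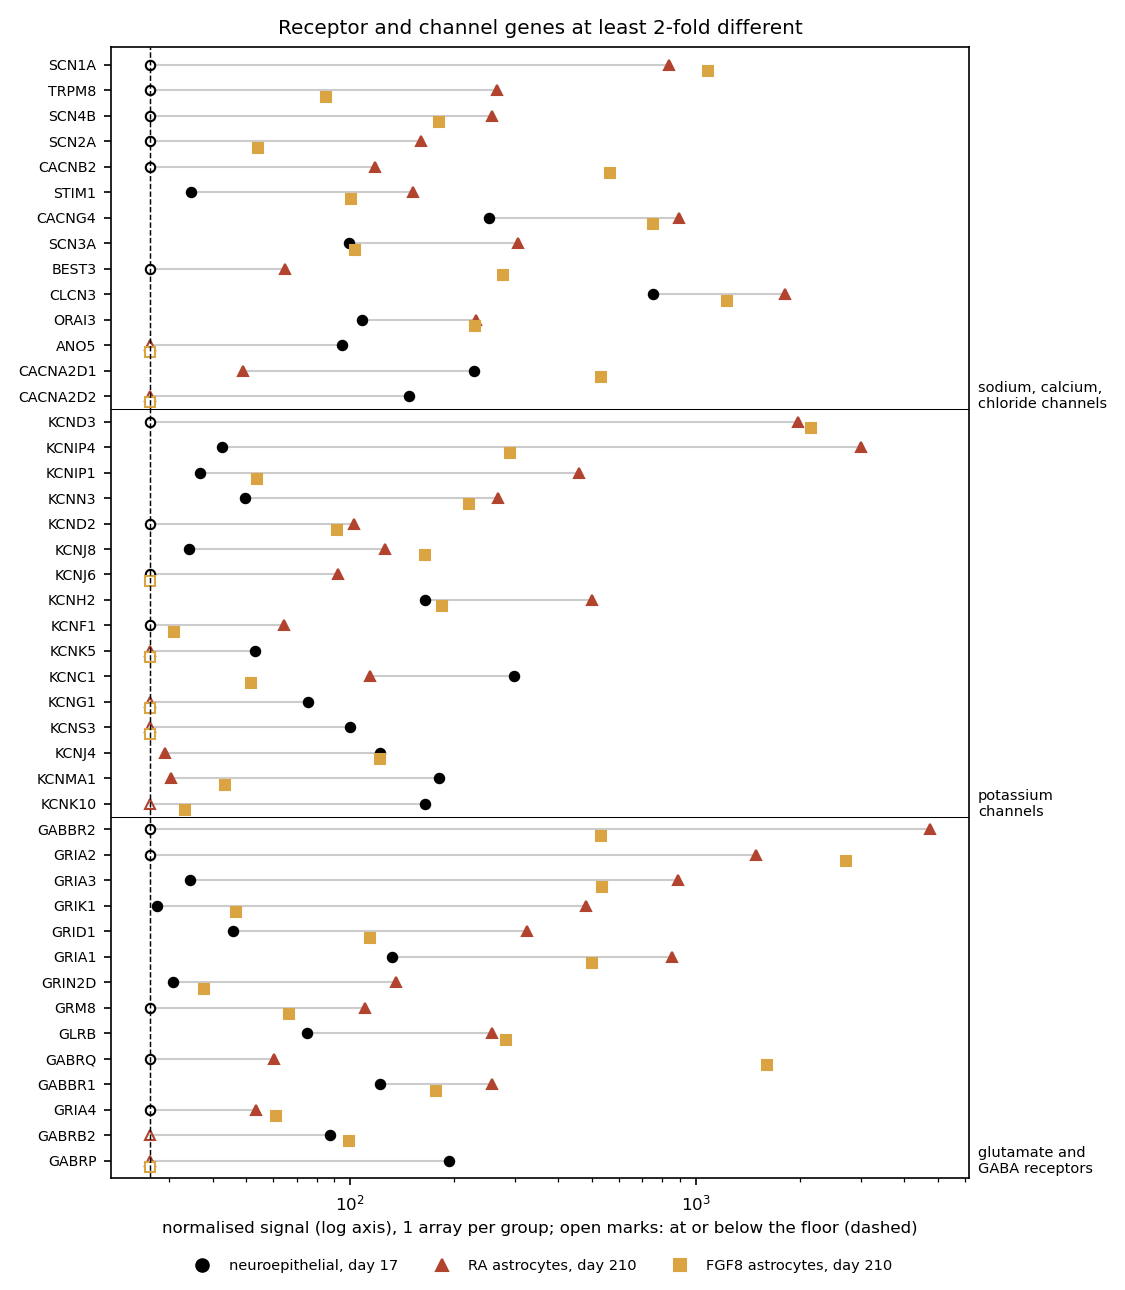
Normalised signal on a log axis of receptor and channel genes at least 2-fold different between RA astrocytes (red triangles) and neuroepithelial cells (black circles), with FGF8 astrocytes as yellow squares drawn slightly lower; open marks lie at or below the dashed floor of 26.4, where a square can hide a triangle. GABBR2 and KCND3 go from open circles to signals of 4763 and 1968 in RA.

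The list of monoamine, peptide, purine and lipid receptors had 10 of 23 higher and 3 lower, with 23 at the floor on both arrays. The cannabinoid receptor CNR1 had signals of 87.5, 3676 and 1526, 41.99-fold higher, the histamine receptor HRH1 had signals of below the floor, 680.03 and 114, at least 25.8-fold higher, and the muscarinic receptor CHRM3 had signals of below the floor, 507 and 75.03, at least 19.2-fold higher. P2RX7, the ATP-gated channel, had signals of below the floor, 367 and 114, at least 13.9-fold higher, and the serotonin receptor HTR2C, a choroid plexus gene, had signals of 437, below the floor and below the floor, at least 16.6-fold lower. Of 25 adhesion and orphan receptors 7 were higher and 8 lower. ADGRG1, which has a part in glial precursor growth, had signals of 528, 8929 and 4579.99, 16.9-fold higher, and GPR158 had signals of below the floor, 447 and 377, at least 16.96-fold higher. The latrophilin ADGRL2 had signals of 1463, below the floor and 72.8, at least 55.5-fold lower, and LGR5, a stem cell receptor for R-spondins, had signals of 499.8, below the floor and below the floor, at least 18.95-fold lower.

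The messengers behind these receptors also differed: in the list for G proteins, cyclic AMP and calcium, 21 of the 45 compared were higher and 8 were lower, with a median log2 difference of 0.91. ITPR2, the calcium release channel typical of astrocytes, had signals of below the floor, 414 and 192, at least 15.7-fold higher. The phosphodiesterase PDE8B had signals of below the floor, 722 and 299.97, at least 27.4-fold higher. The adenylyl cyclase ADCY1 and the kinase PRKCA had signals of 115, 2263 and 284, 19.7-fold higher, and signals of 159, 2102 and 706, 13.2-fold higher, each within 2-fold under 1 alternative setting. GNAI1, an inhibitory G protein, had signals of 411, 127 and 186, 3.25-fold lower. RGS5, a G-protein brake and pericyte marker, had signals of 1070.3, 33.5 and below the floor, 31.97-fold lower. Of 8 endothelial and pericyte markers, RGS5 included, 5 were above the floor in neuroepithelial cells and 2 in RA. Among them 3 were lower and 1 was higher. RGS5 itself gave most of their neuroepithelial sum of 1403, and the higher CLDN5 (114) most of the RA sum of 189. CDH5 and VWF were at the floor on both arrays. Vesicle cycle genes had no settled direction (11 higher and 10 lower of 34, median 0.12, and -0.20 with the deposited values). The granule protein SCG2 had signals of 77.5, 4359.5 and 1034, 56.3-fold higher, the fusion regulator CPLX1 had signals of below the floor, 1328 and 201, at least 50.4-fold higher, and SYT11 had signals of 552, 2800.4 and 1781, 5.07-fold higher. SCG5, a chaperone of prohormone convertase, had signals of 506, below the floor and 203, at least 19.2-fold lower.

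Transporters of nutrients and ions diverged. Of 38 sugar, amino acid and organic ion transporters 9 were higher and 12 lower. SLC38A1, a glutamine importer, had signals of 2205, 38.2 and 723, 57.6-fold lower, and the taurine transporter SLC6A6 had signals of 604, below the floor and below the floor, at least 22.9-fold lower. The creatine transporter SLC6A8 had signals of 262, 1192 and 539.99, 4.55-fold higher, and the fatty acid transporter SLC27A1 had signals of 74.7, 357 and 222, 4.78-fold higher. In acid-base and sodium-coupled transport 10 of 24 were higher and 3 lower (median 0.57). The carbonic anhydrases CA12 and CA13 had signals of 43.6, 1181 and 486, 27.1-fold higher, and signals of 39.3, 306 and 122, 7.77-fold higher, and the anion exchanger SLC4A3 had signals of below the floor, 522 and 109, at least 19.8-fold higher. The bicarbonate transporter SLC4A7 had signals of 926, 279 and 418, 3.32-fold lower. Among ABC transporters 6 of 18 were higher and 4 lower; ABCA3, a lipid pump, had signals of 92.7, 387 and 219, 4.18-fold higher, and ABCC4, an exporter of cyclic nucleotides, had signals of 554, 44.7 and 142, 12.4-fold lower.

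Cytoskeletal lists differed in their balance of higher and lower genes. Of 39 tubulin and microtubule genes 13 were higher and 3 lower (median 0.41). MAP7 had signals of 54.2, 675 and below the floor, 12.5-fold higher, tau, MAPT, had signals of 95.2, 917 and 599.7, 9.63-fold higher, and STMN4 had signals of 491, 3187 and 1349.96, 6.49-fold higher. MAP7 was below the floor in FGF8 astrocytes, while MAPT was high in both. Actin and myosin genes had 9 higher and 7 lower of 37, median 0.01, without a settled direction. The tropomyosins TPM2 and TPM1 had signals of 954, 44.9 and below the floor, 21.2-fold lower, and signals of 8815, 1573 and 725, 5.603-fold lower. Mesenchymal markers had summed signals of 9321 in neuroepithelial cells and 162 in RA. Of the muscle marker sums, 3665 and 316, ACTC1 gave most of the first (3598) and DES, which was higher, most of the second (254). MYOD1, MYOG and TNNI1 were at the floor on both arrays. TAGLN2 had signals of 687, 7572 and 467, 11.02-fold higher, and the adhesion plaque protein ZYX had signals of 164, 1173 and 328, 7.16-fold higher, both above the FGF8 signal too. Of 32 ciliary genes 29 lay within 2-fold, such as the transport protein IFT88 at 0.29, and 3 were higher, including the kinesin KIF3B with signals of 314, 964 and 608, 3.07-fold higher.

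Stress lists were mostly flat. Of 23 hypoxia genes 19 lay within 2-fold, such as HIF1A at -0.57. ANGPTL4, a lipase inhibitor, had signals of below the floor, 1043 and 143, at least 39.5-fold higher, EGLN3, a hydroxylase that marks HIF proteins for degradation, differed by 1.56 in log2, and NDRG1 and EPAS1 by -1.19 and -1.18, the last 3 within 2-fold under 1 alternative setting each. Of 28 genes in the p53 and BCL2 list 7 were higher and 2 lower; ZMAT3, a p53 target that binds RNA, had signals of 339, 2369 and 1665, 6.99-fold higher, and PMAIP1, a pro-death BCL2 relative, had signals of 339.5, 69.98 and 173, 4.85-fold lower.

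Genes named for brain disease lay mostly within 2-fold. In the amyloid and neurodegeneration list 11 of the 32 compared were higher and 2 were lower, with a median log2 difference of 0.45. ATXN1 had signals of 96.4, 1568 and 1115, 16.3-fold higher, the kinase PINK1, which marks damaged mitochondria, had signals of 146, 769 and 280.1, 5.26-fold higher, and BACE1, the secretase that starts amyloid release, had signals of 142, 621 and 277, 4.38-fold higher. In the leukodystrophy list 5 of 26 were higher (19.2%, close to the 18.1% over all genes), 0 lower and 21 within 2-fold. MLC1, an astrocyte end-foot protein, had signals of below the floor, 518 and 287, at least 19.7-fold higher, and SUMF1, which activates sulphatases, had signals of 249.8, 780.4 and 673, 3.12-fold higher.

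Among gene regulators, early transcription factors were lower: 3 of the 33 compared were higher and 17 were lower, with a median log2 difference of -1.02. SALL4, of stem cells, had signals of 824, below the floor and below the floor, at least 31.3-fold lower, and ZIC2 had signals of 1852, 47.6 and 1239, 38.9-fold lower, high in FGF8 but not in RA astrocytes. SALL1, a relative of SALL4, had signals of 1114, 2776 and 3063, 2.49-fold higher. Glial and late factors had 17 higher and 7 lower of 42, median 0.65. NFIB and NFIC, of the gliogenic nuclear factor I family, had signals of 66.99, 3321 and 3367, 49.6-fold higher, and signals of 54.8, 1312 and 1282, 23.9-fold higher. PRDM16, a radial glial regulator, had signals of 761, below the floor and 363, at least 28.9-fold lower, and FOXP1 had signals of 866, 109 and 179, 7.97-fold lower. Tissue-restricted RNA-binding proteins were mixed (5 higher and 8 lower of 28, median -0.11): IGF2BP1 and IGF2BP3, of fetal tissue, had signals of 901, 96.5 and below the floor, 9.34-fold lower, and signals of 2579, 381 and 959.6, 6.77-fold lower, and CPEB4, a translation regulator, had signals of 165, 979.5 and 416, 5.95-fold higher.

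Genes often used as references were not level across this comparison. Of 10 compared, 6 lay within 2-fold, with a median of -0.10. The purine salvage enzyme HPRT1 had signals of 1132, 157 and 434, 7.205-fold lower. B2M, the light chain of MHC class I, had signals of 2455, 16615 and 12259, 6.77-fold higher, and was within 2-fold under 1 alternative setting. GAPDH differed by 0.01.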

How the data were processed

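Total RNA of 3 H9-derived samples was extracted with Trizol and a column cleanup and labelled with biotin by the manufacturer's procedure, per the labels' protocols. The authors deposited 1 table of linear intensities for 54675 probe sets, whose trimmed means of about 150.0 show that each array had been scaled to a common level. For the summary of probe signals the algorithm was not given in the sources used here. Each group is 1 array, so precision is limited by the number of arrays and no p-value was computed.

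Intensities of the 54613 non-control probe sets were quantile normalised over the 3 arrays with Python 3.11.15, pandas 2.3.3 and numpy 2.4.6, since the 75th percentiles differed by 0.14 in log2. Values at or below the median of all probe sets were raised to it (the floor), which makes a difference across it a lower bound. Probe sets with 1 symbol (41091) were kept, and 1801 with several and 11721 with none were left out; identifiers of 41037 matched a RefSeq gene table (GRCh38.p14). A gene was represented by its brightest probe set, other than the cross-hybridising _x_at type where possible. Differences are log2 RA minus neuroepithelial signal, counted from 2-fold. List medians take bounds at their bound.

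The comparison, its 70 gene lists and its 13 marker lists were chosen with earlier results of these data known, so their counts describe and support nothing. From each list up to 4 genes per direction with the largest differences at least 2-fold are named, with members within 2-fold as examples, the 25 largest differences and the 25 largest bounds per direction, and label checks. Promoter examples are the largest differences with a match. Alternatives were other scalings, floors, probe set rules and sizes. The code for the normalisation and floor was run on arrays simulated from the neuroepithelial array, with few probe sets changed. Far more genes differ in these data, so that run checks the code only. Results of 1 list and of some genes are not reported here.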

Additional observations from a re-analysis of the deposited data

How the results depend on the processing

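Scaling, floor, probe set choice and size were varied 1 at a time. The counts of 2420 higher and 1946 lower genes became 4961 and 4189 without a floor, 3898 and 3238 at a size of 1.5-fold, and 870 and 728 at 4-fold, and the lower count was 1291 with the floor at the 70th percentile. With the deposited values the counts were 2180 and 2141, and with array medians set equal 3388 and 1399. The median of the aminoacyl-tRNA synthetases turned to 0.12, that of the constitutive proteasome to 0.079 and that of the cytosolic chaperones to 0.059 with array medians set equal; the other 28 of 31 lists with a median of at least 0.5 in size kept their sign under all 8 alternatives that give a median. Of 497 genes past 2-fold that the naming rule selects, 343 passed it the same way under every alternative that gave a value, and 7 changed sign under at least 1. With the mean of all probe sets ACAT1 was -0.43, ATXN3 0.55, CST3 -0.77, NOVA2 -0.11 and STMN1 0.25. Without less specific probe sets FARSB was 0.56, GADD45B -0.022, NOVA2 -1.36 and STMN1 0.075. The cause was not tested. Among other probe sets above the floor of the genes named, 325 of 480 passed 2-fold in the same direction and 3 in the opposite one. No paired analysis was possible because each group has 1 array. With 1 array per group no spread between cultures can be estimated, and small signals near the floor are the least certain.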

Other observations

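Several of the largest differences lay outside the gene lists. AGT, the angiotensin precursor that brain astrocytes secrete, had signals of 39.2, 3135 and 299.7, 79.98-fold higher in the order neuroepithelial, RA, FGF8. SYNM, an intermediate filament partner of GFAP and vimentin, had signals of 73.2, 5065 and 2706, 69.2-fold higher. BBOX1, the last enzyme of carnitine synthesis, had signals of below the floor, 2723 and 1133, at least 103-fold higher, and SLC47A2, an exporter of organic cations, had signals of below the floor, 1797 and 475, at least 68.2-fold higher. CPT1A, the carnitine-dependent entry step of fatty acid oxidation, was also higher. The elastin gene ELN had signals of below the floor, 1060.5 and 186, at least 40.2-fold higher, TMOD1, which caps actin filaments, had signals of below the floor, 1599 and 496, at least 60.6-fold higher, and PLPPR4, a neuronal lipid phosphatase relative, had signals of below the floor, 1597 and 386, at least 60.5-fold higher. CSGALNACT1, which starts chondroitin sulphate chains, had signals of below the floor, 1314 and 196, at least 49.8-fold higher. RPE65, the retinoid isomerase of pigment epithelium, had signals of below the floor, 1021 and 214, at least 38.7-fold higher, while RAX, RLBP1 and CRX were at the floor on both arrays and MITF was within 2-fold. MIR9-1HG, the host transcript of a microRNA gene, had signals of 283, 11354 and 11829.6, 40.1-fold higher.

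On the lower side, FABP5, a fatty acid carrier, had signals of 1554, below the floor and 1766, at least 58.9-fold lower, so that the RA array differed from both others. SP8, a rostral patterning factor, had signals of 1351, 31.2 and 1204, 43.3-fold lower, and was likewise low on the RA array alone. CNTNAP2, a neurexin relative, had signals of 1239, 27.3 and 111, 45.4-fold lower, and RMI2, a partner of the BLM helicase, had signals of 918, 33.1 and 317, 27.7-fold lower. MFAP2, a microfibril protein, had signals of 1389.7, 45.1 and 246, 30.8-fold lower, NEBL, a thin filament protein, had signals of 966, below the floor and 40.8, at least 36.6-fold lower, and LIX1 had signals of 1057, below the floor and below the floor, at least 40.1-fold lower.

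Genes next to each other in genome order, among the genes compared, sometimes differed the same way. Genes without a difference were skipped, so others can lie between such neighbours. Among 13323 placed genes, 34 runs of at least 4 neighbours were all higher (155 genes) and 12 runs were all lower (52 genes). The longest run, of 10 genes, held MHC class II genes with TAP1, TAP2, PSMB8 and PSMB9. A run of 7 held CNPPD1, RETREG2, ZFAND2B, ABCB6, ATG9A, ANKZF1 and GLB1L, with a median log2 difference of 1.44. FAS, LIPA, IFIT2, IFIT3, IFIT1 and IFIT5 formed a run of 6 with a median of 2.03. The longest lower run held ENPP4, RCAN2, CYP39A1, SLC25A27, TNFRSF21 and CD2AP, with a median of -1.86, and a run of 5 held GPC4, GPC3, CCDC160, PHF6 and HPRT1, with a median of -2.08. These runs were picked for their length after the values were seen, and how many runs an unordered genome would give was not examined.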
